A study of Mus musculus with 6 samples.

Results

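The 42 genes described here encode the contractile apparatus of skeletal muscle and the proteins that feed it with calcium and energy. They were taken by symbol from a list of sarcomere and contraction genes and matched to the Ensembl identifiers in the deposited tables, which hold 15663 genes in all. Of the 42 genes, 40 are listed in the tables. The slow essential light chain gene Myl3 and the extraocular myosin gene Myh13 are not listed in them. Of the 40 listed genes, 38 had enough counts to be tested, and the slow fibre genes Myl2 and Tnnc1 did not.

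RNA was sequenced from the RPE-choroid, which is the retinal pigment epithelium (RPE) together with the vascular choroid under it, of 3 control mice and 3 mice with subretinal fibrosis. The fibrosis group is labelled SRF. All are labelled C57BL/6, and per the study's methods they were C57BL/6J males 8 to 10 weeks old, and the controls are labelled untreated. In the fibrosis mice each eye received 4 laser burns around the optic nerve head and each burn was lasered again 10 days later, and RNA was extracted 20 days after that, so the lesions are a few spots within the extracted tissue. How far the sclera and the muscles on the outside of the globe were trimmed away is not given in the sources used here. The question asked of the 42 genes was whether muscle RNA followed the control and fibrosis groups or single libraries.

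Skeletal muscle contracts when myosin filaments pull on actin filaments within the sarcomere, and calcium released from the sarcoplasmic reticulum allows this by binding to troponin on the thin filament. Fast and slow fibres carry different genes for the myosin heavy chains, the light chains and the troponins, so the mix of these transcripts describes the fibre types that gave the RNA. The muscles that move the eye insert on the sclera, just outside the choroid, and in adult animals they keep fast, slow and developmental myosins in one muscle along with a heavy chain of their own, that of Myh13. Because Myh13 is not listed, the origin of the RNA in extraocular muscle was not checked against its defining marker, and the genes are called skeletal muscle genes below. The other defining genes of skeletal muscle fibres (Acta1, Ckm, Tnnc2, Atp2a1) were present in every library, and so were those of the labelled tissue, with 15 RPE genes (Rpe65 and Rgr among them) summing to between 37010 and 59260 CPM.

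The promoters of a few of these genes show which regulatory letters muscle genes carry. The first 3 are given because they belong to genes with high levels that varied together between libraries, and the last because Myh3 departed most from the others. Each is the stretch of 250 bases before the RefSeq start on GRCm38.p6, written in the direction of the gene. The intervals are chr8:123894776-123895025 on the minus strand for Acta1, chr2:164779735-164779984 on the minus strand for Tnnc2, chr7:19410844-19411093 on the plus strand for Ckm and chr11:67078050-67078299 on the plus strand for Myh3. Capitals mark the E-box CANNTG, which is the core recognised by the myogenic basic helix-loop-helix factors, the CArG box recognised by serum response factor, the MEF2 box and the TATAAA letters found near the start of many genes.
Acta1: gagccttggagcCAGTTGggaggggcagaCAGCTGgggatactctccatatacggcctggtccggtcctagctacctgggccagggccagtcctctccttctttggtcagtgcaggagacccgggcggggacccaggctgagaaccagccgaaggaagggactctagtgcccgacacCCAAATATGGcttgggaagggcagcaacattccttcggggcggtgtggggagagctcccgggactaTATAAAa
Tnnc2: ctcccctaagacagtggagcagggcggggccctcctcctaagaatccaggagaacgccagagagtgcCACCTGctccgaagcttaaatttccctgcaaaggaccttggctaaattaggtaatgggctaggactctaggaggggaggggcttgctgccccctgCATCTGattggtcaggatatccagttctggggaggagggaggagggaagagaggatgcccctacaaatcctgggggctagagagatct
Ckm: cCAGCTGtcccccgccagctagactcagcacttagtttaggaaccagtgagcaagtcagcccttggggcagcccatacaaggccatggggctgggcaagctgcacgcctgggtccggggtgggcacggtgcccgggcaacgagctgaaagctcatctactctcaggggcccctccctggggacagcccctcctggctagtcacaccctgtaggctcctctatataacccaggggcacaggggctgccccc
Myh3: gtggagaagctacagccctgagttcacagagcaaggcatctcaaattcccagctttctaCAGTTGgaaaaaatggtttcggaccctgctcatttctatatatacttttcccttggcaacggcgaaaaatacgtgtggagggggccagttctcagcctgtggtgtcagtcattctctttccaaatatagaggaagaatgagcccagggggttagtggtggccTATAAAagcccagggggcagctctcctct

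Promoter sequence was found for 35 of the 42 genes in the RefSeq table. At least 1 E-box (CANNTG, on both strands) was present in 29 of the 35 windows, or 82.9%, against 69.3% of the 27025 windows of all genes. The form CAGCTG, which is counted among the E-boxes too, was present in 14 of 35 windows, or 40%, against 14.7% of all windows. The CArG box was found in 5 windows (Acta1, Actc1, Ldb3, Myh4 and Myl3), or 14.3% against 1.62% of all. The MEF2 box was found in the windows of Ttn and Xirp2, or 5.71% against 0.592% of all, and TATAAA was found in 9 windows, or 25.7% against 14.3%. Such matches describe the letters of these windows and were not tested.

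Skeletal muscle RNA was present in all 6 libraries, and its amount differed more between mice of the same group than between the groups. The counts on listed genes came to between 13667310 and 24356023 per library, and the values below are CPM, which are counts scaled to a common library size, after TMM normalization unless FPKM is named, which also divides by transcript length. Summed over the 40 genes, the level was 3799, 6047 and 3773 CPM in control mice 1, 2 and 3. It was 8097, 6726 and 2510 CPM in fibrosis mice 1, 2 and 3. The highest and the lowest library were thus both fibrosis libraries, 3.23-fold apart, and all 3 controls lay between them. The control mean was 4540 ± 1305 CPM and the fibrosis mean 5778 ± 2912 CPM (SD, n = 3 each), a log2 ratio of 0.35 of the means that is smaller than the pooled SD within groups of 0.70 on the log2 scale. In bulk tissue such a sum cannot tell fewer muscle fibres from less RNA per fibre.

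**Figure D1:**
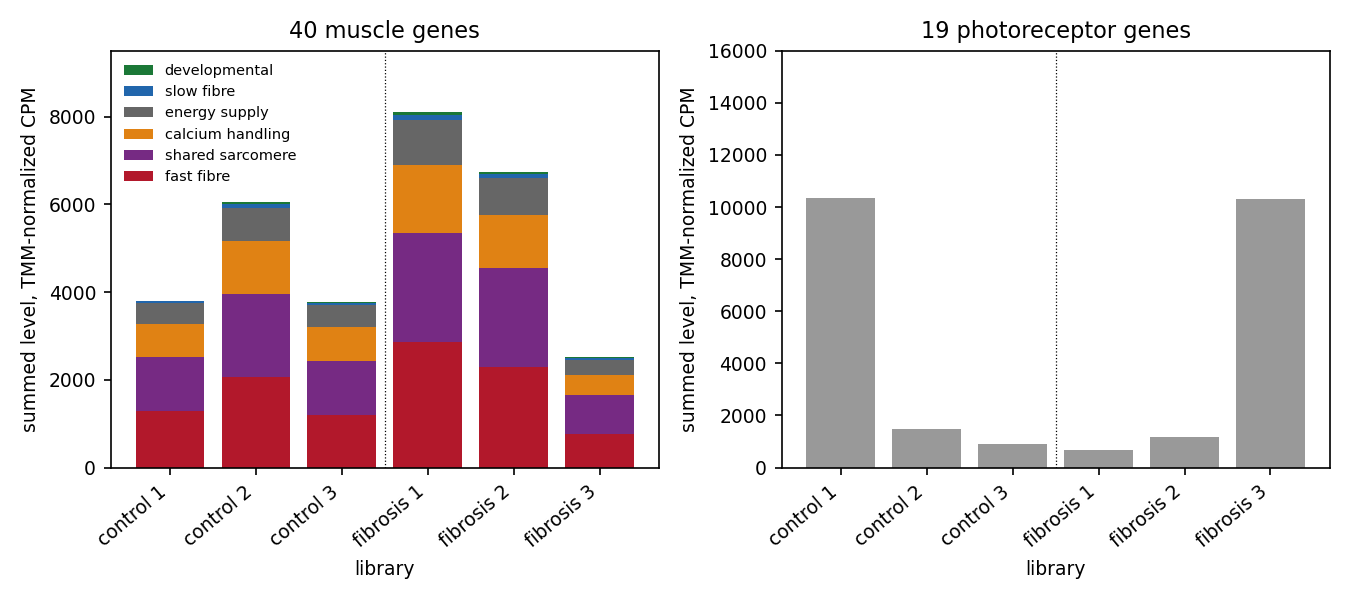
Summed level in TMM-normalized CPM (vertical axes, from 0) of the 40 listed muscle genes, stacked by role (left), and of 19 photoreceptor genes (right), for each of the 6 libraries. The muscle sum runs from 2510 in fibrosis mouse 3 to 8097 in fibrosis mouse 1 with the controls between, and the photoreceptor sum is high in control mouse 1 and fibrosis mouse 3.

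In 37 of the 40 genes control mouse 2 and fibrosis mice 1 and 2 were all above control mice 1 and 3 and fibrosis mouse 3. The same order was seen in 11.2% of all 13454 tested genes. Actc1, Xirp2 and Smyd1, named here because they are the exceptions, were the 3 genes outside it. Fibrosis mouse 1 had the highest level in 31 of the 40 genes, fibrosis mouse 2 in 6 and control mouse 2 in 3, while fibrosis mouse 3 had the lowest level in 31, control mouse 3 in 7 and control mouse 1 in 2. Over all 15663 listed genes, fibrosis mouse 1 was highest in 19.5% and fibrosis mouse 3 lowest in 21.9%. Within the fibrosis group alone, the level of a muscle gene in mouse 1 was a median 3.38-fold that in mouse 3 (from 1.02-fold for Tnnt1 to 4.71-fold for Myh4). The median range within the fibrosis group was 1.75 on the log2 scale against 0.43 over all tested genes, and within the control group it was 0.88 against 0.39.

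**Figure D2:**
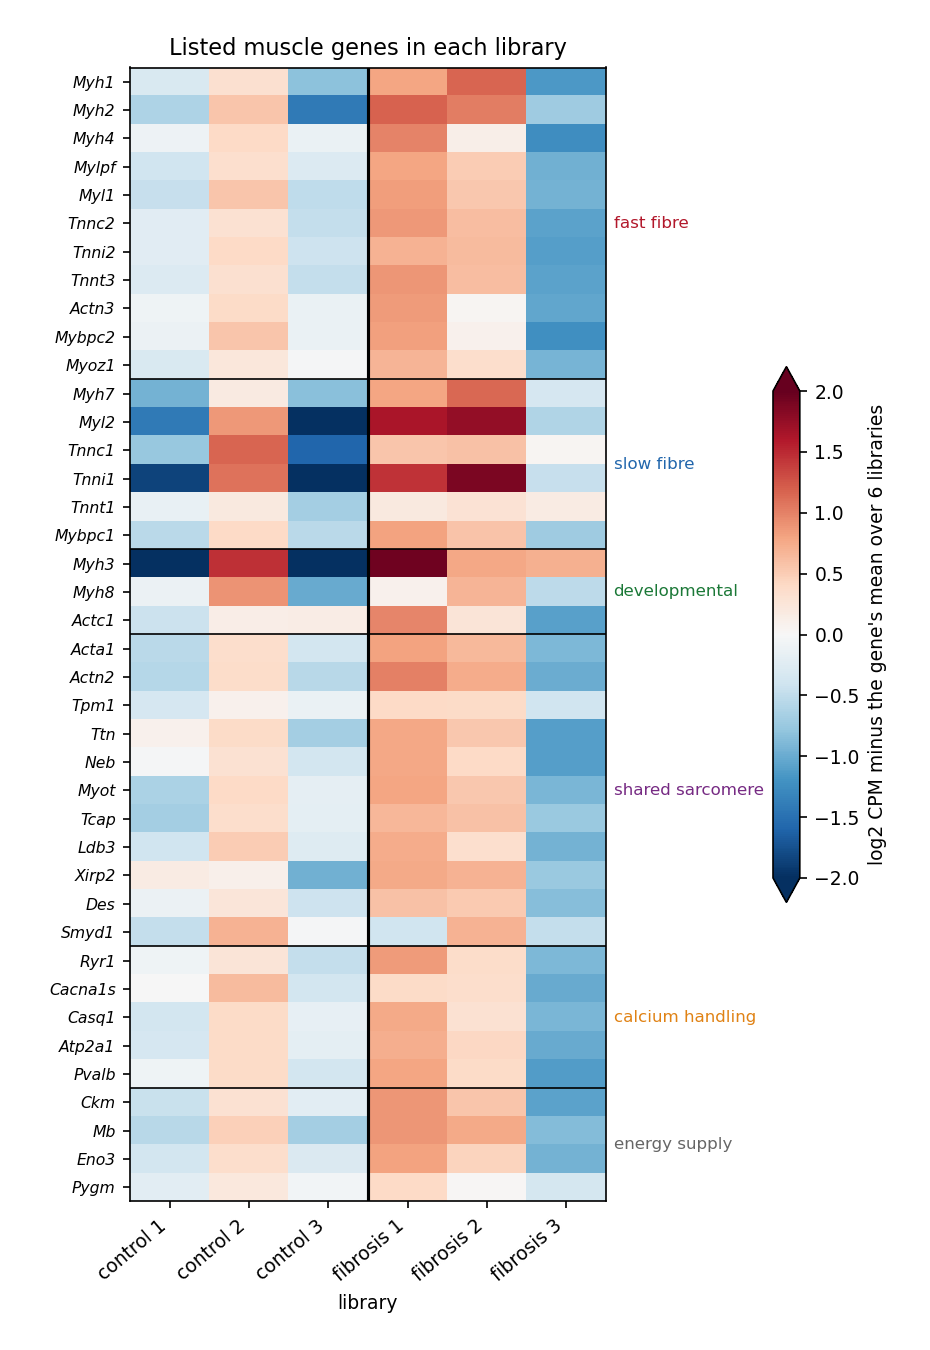
Level of each listed muscle gene (rows, by role) in each library (columns), as log2 CPM minus the mean of that gene over the 6 libraries. In 37 of 40 rows control mouse 2 and fibrosis mice 1 and 2 are above the other 3 libraries. Among the tested genes the largest departures from the common picture are in Myh3 and Tnni1. Myl2, which was not tested, keeps that split with a wide spread but has only 3 to 36 counts per library.

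The control and fibrosis groups overlapped in all 40 genes, whereas 13.1% of all tested genes had groups that did not overlap. The wider of the within-group ranges exceeded the difference of the group means on the log2 scale in 40 of 40 genes, by a median factor of 7.94. This factor grows without limit as the difference of the means shrinks, and no value over all tested genes is given. It therefore describes the muscle genes and does not set them apart from other genes. With edgeR's quasi-likelihood test and Benjamini-Hochberg adjustment over all 13454 tested genes, 0 of the 38 tested muscle genes were called, a call being an adjusted p under 0.05 with an absolute log2 fold change of 0.5 or more. The same rule called 0% of all tested genes. An unadjusted p under 0.05 was reached by 0 of the 38 in edgeR, against 7.01% of all tested genes. DESeq2 likewise called 0 of the 38, against 1.14% of all tested genes, and gave 1 of them, Myh7, an unadjusted p under 0.05, against 7.23% of all tested genes. Adjusted p-values from edgeR lay between 0.744 and 0.9999 over the 38 genes.

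The fitted log2 fold changes were above 0 in 35 of the 38 genes, against 50.3% of all tested genes, with a median of 0.34 against 0.00. They ranged from -0.11 for Cacna1s to 1.44 for Tnni1, and 10 were at least 0.5. The genes were not independent in this, since they moved together from library to library, and the median standard error was 0.45 on the log2 scale against 0.19 over all tested genes. The median depended on single mice. It fell to 0.06 without fibrosis mouse 1, when 23 genes were above 0 and 15 below. It was 0.71 without fibrosis mouse 3 and 0.61 without control mouse 2. Leaving out control mouse 1 or control mouse 3 gave 0.21 each, and leaving out fibrosis mouse 2 gave 0.24. No muscle gene was called in any of these fits, although without fibrosis mouse 3 an unadjusted p under 0.05 was reached by 23 of 38 genes, against 13.1% of all genes tested in that fit.

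**Figure D3:**
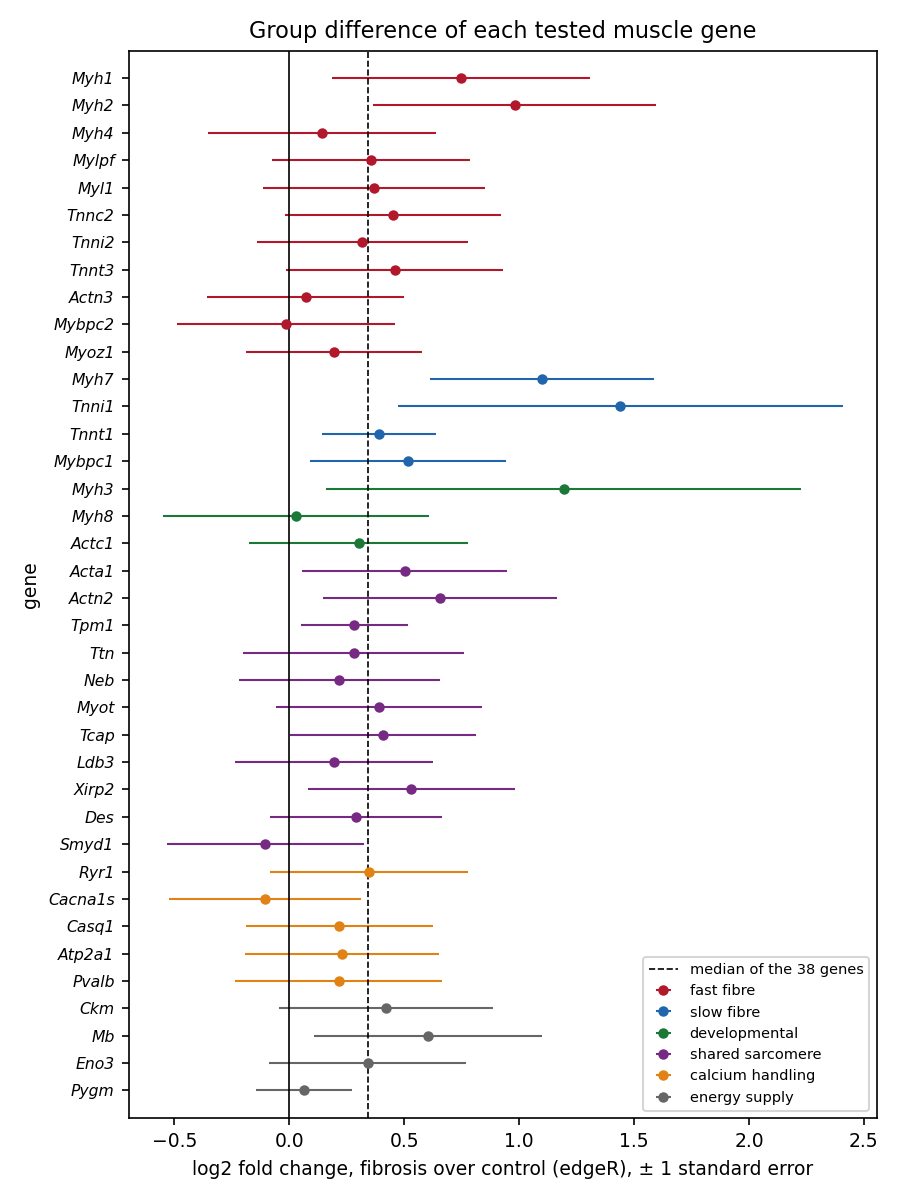
Log2 fold change of fibrosis over control for each of the 38 tested muscle genes (points, edgeR) with 1 standard error either side (bars), coloured by role. The dashed line is the median of the 38 genes at 0.34, and 0 of them passed the test.

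Other parts of the eye differed between the same libraries. The summed level of 19 photoreceptor genes was 10360, 1462 and 892 CPM in control mice 1, 2 and 3 and 668, 1154 and 10300 CPM in fibrosis mice 1, 2 and 3. Control mouse 1 and fibrosis mouse 3 thus stood apart with far more photoreceptor RNA, and both were among the 3 libraries with little muscle RNA, while control mouse 3 was low in both. Without these 2 libraries, the median log2 fold change of the 38 muscle genes was 0.58, with 37 above 0. An unadjusted p under 0.05 was then reached by 24 of 38, against 17.6% of all genes tested, and 0 of the 38 were called with edgeR and Benjamini-Hochberg adjustment, against 1.16% of all. These 4 libraries leave 2 mice a group. Fibrosis mouse 3, which was left out here, had the lowest level in 31 of the 40 genes, so leaving it out raises the fibrosis mean. The 38 genes moved together between libraries, so the 24 are not separate results and their number was not tested.

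Of 13 marker lists of other tissues in or near the eye, 1 split the libraries as the muscle genes did. That list is endothelium, whose 10 genes summed to 1934, 2279 and 1920 CPM in controls and 2398, 2118 and 1780 CPM in fibrosis. Fibrosis mouse 1 was again highest and fibrosis mouse 3 lowest, but the highest library was only 1.35 times the lowest. Smooth muscle and pericyte genes (17, among them the smooth muscle actin Acta2), which share contractile functions but not the skeletal fibre programme, summed to between 2652 and 3451 CPM, a 1.301-fold range. Tendon genes summed to 483, 843 and 1573 CPM in controls and 848, 1289 and 1778 CPM in fibrosis, so they were highest in the library with the least muscle RNA. The sum over 12 fibroblast and scleral genes was highest in fibrosis mouse 3, at 13620 CPM, and lowest in control mouse 1, at 5030 CPM. The tendon and the fibroblast and scleral lists both hold Fmod and Comp, so their sums are not independent. Fmod alone was at 1140 of the 1778 tendon CPM in fibrosis mouse 3. Adipocyte genes were at 80.4 and 79.6 CPM in fibrosis mice 1 and 2 and between 41.9 and 52.2 CPM in the other 4 libraries. The part of these tissues in the muscle values was not tested.

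Fast fibre genes made up most of the fibre-type RNA. The 11 genes of this group, which are the fast myosins, fast light chains, fast troponins and fast Z-disc proteins, summed to 1297, 2064 and 1199 CPM in controls and 2856, 2302 and 761 CPM in fibrosis. All 11 were tested, 10 had a log2 fold change above 0, and the median was 0.35. Tnnc2, the calcium-binding troponin C of fast fibres, had the highest mean FPKM of the 40 listed genes, at 534. Its level was 287, 416 and 243 CPM in controls and 618, 515 and 159.9 CPM in fibrosis, with the largest values in fibrosis mice 1 and 2 and the smallest in fibrosis mouse 3. Its log2 fold change was 0.45 ± 0.47 (SE). Myl1, the fast essential light chain of myosin, was at 203, 412 and 197 CPM in controls and 498, 407 and 145 CPM in fibrosis. Control mouse 2 was above fibrosis mouse 2 here, and the log2 fold change was 0.37 ± 0.48 (SE).

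The other fast fibre genes kept close to this order. Mylpf (fast regulatory light chain), Tnni2 and Tnnt3 (fast troponins I and T), Actn3 (the fast fibre isoform of the Z-disc protein actinin), Mybpc2 (fast myosin-binding protein C) and Myoz1 (a Z-disc protein of fast fibres) had a highest library between 3.07 and 4.13 times the lowest. Fibrosis mouse 1 was highest and fibrosis mouse 3 lowest in each of these 6 genes. Their log2 fold changes lay between -0.02 for Mybpc2 and 0.46 for Tnnt3. Actn3 and Mybpc2, with 132 and 65.5 CPM in fibrosis mouse 1, were at 75.6 and 39.3 CPM in fibrosis mouse 2, which is below control mouse 2 at 95.8 and 54.2 CPM.

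The myosin heavy chains, the motor proteins whose isoform sets the speed of a fibre, gave the finest view of fibre types. Genes for 5 of the 6 listed chains lie side by side on chromosome 11 of GRCm38, in the order Myh3, Myh2, Myh1, Myh4 and Myh8, all on the plus strand and within 230 kb (chr11:67078300-67308634). Myh4, the IIb chain of the fastest fibres, was at 192, 270.4 and 187 CPM in controls and 408, 223 and 86.7 CPM in fibrosis. The control libraries lay within the range of the fibrosis libraries, and the log2 fold change was 0.14 ± 0.50 (SE). Myh1, the IIx chain, was at 86.3, 134 and 60.6 CPM in controls and 185, 239 and 48.1 CPM in fibrosis. Unlike Myh4 it was highest in fibrosis mouse 2, and its log2 fold change was 0.75 ± 0.56 (SE). Myh2, the IIa chain of fast oxidative fibres, was at 25.2, 56.4 and 14.4 CPM in controls and 87.3, 78.7 and 23.5 CPM in fibrosis. Its lowest library was control mouse 3 and not fibrosis mouse 3, and the log2 fold change was 0.98 ± 0.62 (SE).

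Per transcript length, the fast chains Myh4, Myh1 and Myh2 supplied most of the signal of the 6 listed heavy chains in every library. The largest other share was that of Myh3 in fibrosis mouse 3, at 9.50%. Myh4 made up 62.2, 54.3 and 69.8% of the summed heavy chain FPKM in controls and 55.2, 38.8 and 47.2% in fibrosis. Myh1 made up 27.9, 26.8 and 22.8% in controls and 25.6, 42.2 and 28.0% in fibrosis, so fibrosis mouse 2 was the only library in which Myh1 exceeded Myh4. In counts, Myh1 was 51.7% of Myh1 and Myh4 together in that library (95% Wilson interval 50.7 to 52.8) and between 24.5 and 35.7% in the other 5, whose intervals reached at most 37.6%. Intervals of this kind cover counting error only. The share of Myh2 was 8.09, 11.3 and 5.34% in controls and 11.7, 13.6 and 12.7% in fibrosis. Its groups did not overlap, but in counts the intervals of control mouse 2, 11.3% (10.7 to 12.0), and fibrosis mouse 1, 12.0% (11.4 to 12.5), did.

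**Figure D4:**
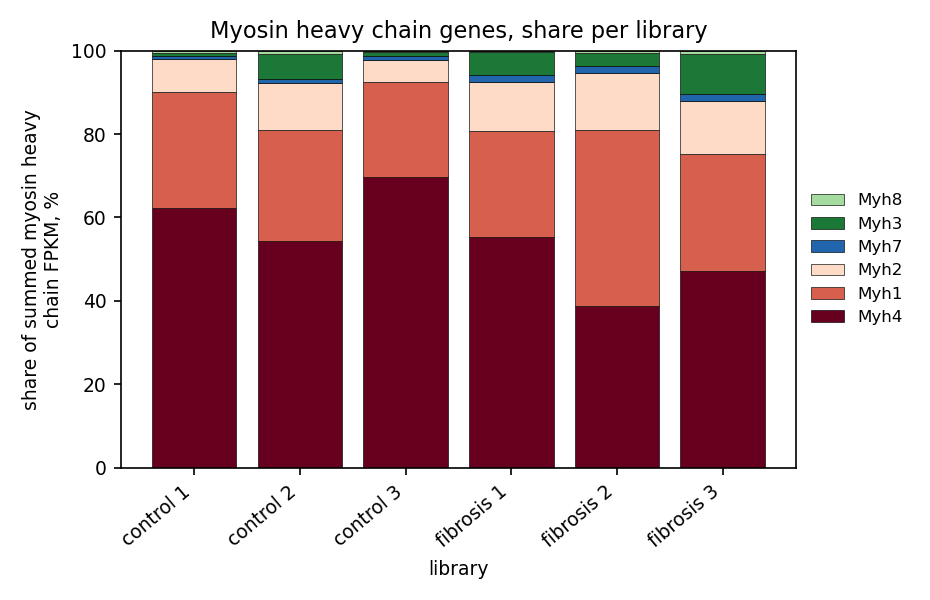
Share of each listed myosin heavy chain gene in their summed FPKM (vertical axis, percent) for each library. Myh4 is the largest share in 5 libraries and Myh1 in fibrosis mouse 2, and the share of Myh3 runs from 0.536% in control mouse 1 to 9.50% in fibrosis mouse 3.

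Slow fibre genes were low in every library. The 6 listed genes of this group summed to 44.1, 84.4 and 40.7 CPM in controls and 108, 101 and 45.7 CPM in fibrosis. They made up between 3.28 and 4.20% of the fast and slow CPM together in 5 libraries and 5.66% in fibrosis mouse 3. In FPKM the share was between 1.57 and 2.10% in 5 libraries and 3.36% in fibrosis mouse 3. Most of the slow CPM came from Mybpc1 alone, with 31.0 of 44.1 CPM in control mouse 1 and 27.5 of 45.7 CPM in fibrosis mouse 3. The share is thus not a measure of the fraction of slow fibres. All 4 tested genes had a log2 fold change above 0, with a median of 0.81, and 0 of the 4 passed the test. Myh7, the slow and beta-cardiac heavy chain, was at 2.23, 4.88 and 2.42 CPM in controls and 7.46, 9.58 and 3.42 CPM in fibrosis. Fibrosis mice 1 and 2 were above every control, but fibrosis mouse 3 was below control mouse 2. Its log2 fold change of 1.10 ± 0.49 (SE) had the smallest p of the 38 genes in edgeR, 0.0589 before and 0.744 after Benjamini-Hochberg adjustment. DESeq2 gave 0.0383 before and 0.603 after adjustment. Over the alternatives tried, the adjusted p of Myh7 was between 0.162 and 0.9999.

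The share of Myh7 in the heavy chain FPKM was 0.714, 0.966 and 0.890% in controls and 1.67, 1.64 and 1.82% in fibrosis, so these groups did not overlap. In counts the shares were 0.722, 0.979 and 0.904% in controls and 1.02, 1.68 and 1.89% in fibrosis. The counting interval of fibrosis mouse 1 (0.866 to 1.21%) held the shares of control mice 2 and 3, so in counts that library was not separated from them. The length implied by the counts and FPKM of Myh7 differed up to 1.69-fold between libraries. In CPM the groups of Myh7 overlapped, while 13.1% of all tested genes had groups that did not. Shares of 6 chains add up to a fixed total and were looked at together, and they were not tested.

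The regulatory and thin filament genes of slow fibres were uneven. Tnni1, the slow troponin I, had 8, 84 and 12 counts in controls and 109, 143 and 28 counts in fibrosis, or 0.596, 4.56 and 0.501 CPM and 5.89, 7.96 and 1.57 CPM. The spread between libraries was 15.9-fold, and the log2 fold change of 1.44 ± 0.97 (SE), the largest of the 38, was 0.98 without control mouse 3 and 3.23 without control mouse 2. Tnnt1, the slow troponin T, was at 9.23, 11.7 and 6.38 CPM in controls and 11.7, 12.5 and 11.5 CPM in fibrosis. Fibrosis mouse 3 was not low for this gene, and its log2 fold change was 0.39 ± 0.25 (SE). As a share of slow and fast troponin T counts, Tnnt1 was 12.0% (10.5 to 13.6) in fibrosis mouse 3 and between 3.49 and 5.90% elsewhere. Mybpc1, the slow myosin-binding protein C, was at 31.0, 59.3 and 30.8 CPM in controls and 78.9, 67.1 and 27.5 CPM in fibrosis. It had the highest mean FPKM of the slow group, 13.9, and a log2 fold change of 0.52 ± 0.43 (SE).

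Myl2 and Tnnc1, the slow regulatory light chain and the slow and cardiac troponin C, were too low to test. Myl2 had 3, 20 and 3 counts in controls and 34, 36 and 7 in fibrosis. Tnnc1 had 10, 52 and 10 counts in controls and 34, 34 and 23 in fibrosis, with its highest CPM in control mouse 2. A count of 3 was worth 0.123 CPM in the deepest library and 0.220 CPM in the shallowest before TMM scaling, so differences of Myl2 among the libraries with few counts were not detectable. Both genes still had control mouse 2 and fibrosis mice 1 and 2 above the other 3 libraries.

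The developmental genes held the gene that departed most from the rest. Myh3 is the embryonic heavy chain, made in forming and regenerating fibres and kept in parts of adult eye muscles. It had 22, 542 and 56 counts in controls and 756, 328 and 311 counts in fibrosis, or 1.64, 29.4 and 2.34 CPM and 40.9, 18.3 and 17.4 CPM. Control mice 1 and 3 were low and the other 4 libraries high, with 24.96-fold between the extremes. Fibrosis mouse 3, which had the lowest level in most muscle genes, was high for Myh3. The log2 fold change was 1.19 ± 1.03 (SE) with an adjusted p of 0.9497 (edgeR, Benjamini-Hochberg), and DESeq2 gave no p for it. Leaving out each mouse in turn gave log2 fold changes between 0.68 and 3.66, the last without control mouse 2.

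Against Myh4, Myh3 made up 0.846, 9.81 and 1.24% of the counts of the pair in controls and 9.11, 7.58 and 16.7% in fibrosis. The interval in fibrosis mouse 3, 15.1 to 18.5%, lay above those of all other libraries, and control mouse 2 (9.05 to 10.6%) was level with fibrosis mouse 1 (8.51 to 9.75%) within counting error. Deviations were also taken, starting from the log2 CPM of each gene minus its own mean over the 6 libraries. The median of these values over the 38 tested genes was then subtracted within each library. They show departure from the common library pattern and not how abundant a gene is. Myh3 deviated by -2.37, 1.09 and -1.82 in controls and 1.15, 0.24 and 1.65 in fibrosis on the log2 scale. The SD of such deviations over the 6 libraries was 1.69 for Myh3 and 1.29 for Tnni1, against a median of 0.20 over the 38 genes. It was under 0.2 in 19 genes and over 0.5 in 7, which were Myh3, Tnni1, Smyd1, Tnnt1, Myh2, Myh8 and Myh7. In 5 of these 7 the product is a myosin heavy chain or troponin of slow or developmental fibres, and the smallest deviation was that of Eno3, at 0.052. Several of the 7 had few counts per library, with 8 to 143 for Tnni1, 25 to 72 for Myh8 and 30 to 172 for Myh7. Myh2 had more, 338 to 1614. Counting error widens the deviations of genes with few counts, and its part in this was not tested.

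**Figure D5:**
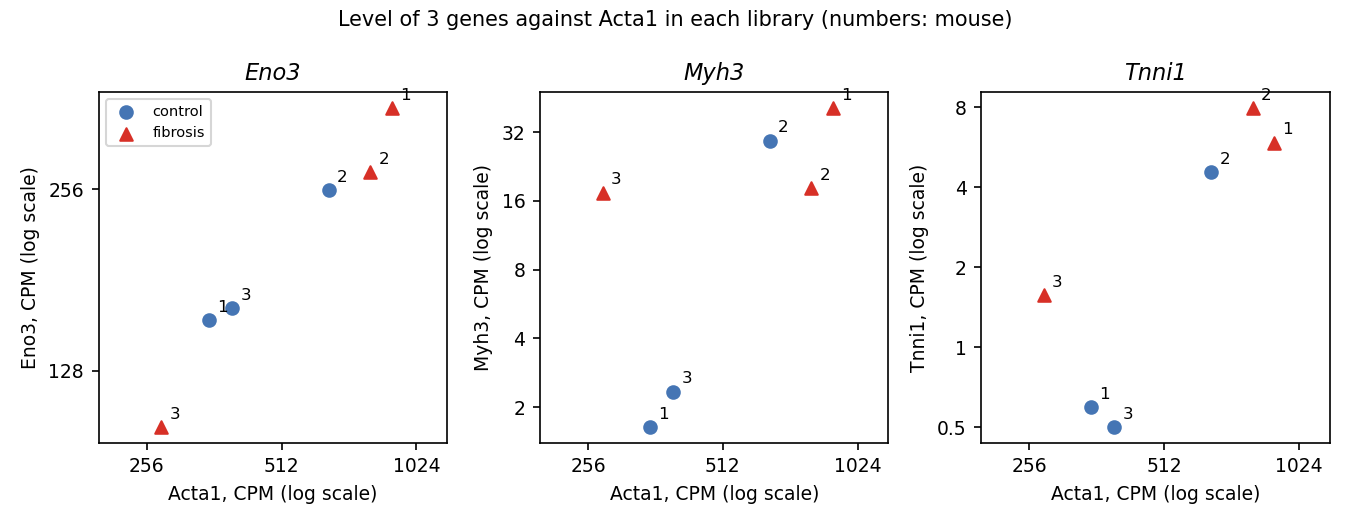
Level of Eno3, Myh3 and Tnni1 (vertical axes, CPM, log scale) against Acta1 (horizontal axes, CPM, log scale) in the 6 libraries, with mouse numbers beside the points. Eno3 has the same order of libraries as Acta1, whereas fibrosis mouse 3, lowest for Acta1, lies above control mice 1 and 3 for Myh3 and Tnni1.

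Myh8, the perinatal heavy chain, was at 1.94, 3.91 and 1.04 CPM in controls and 2.22, 3.34 and 1.46 CPM in fibrosis. Its highest library was control mouse 2, its share of the heavy chain FPKM did not exceed 0.781% in any library, and its log2 fold change was 0.03 ± 0.58 (SE). Actc1, the cardiac actin that skeletal muscle makes during development, was at 8.26, 12.2 and 12.3 CPM in controls and 21.8, 13.4 and 5.27 CPM in fibrosis. Control mouse 3 was level with control mouse 2 here, which put Actc1 outside the common order, and the log2 fold change was 0.30 ± 0.48 (SE). Actc1 was between 1.63 and 3.01% of the Actc1 and Acta1 counts.

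Genes of the sarcomere that all fibre types share summed to 1215, 1892 and 1220 CPM in controls and 2483, 2239 and 885 CPM in fibrosis. Of these 11 genes, 10 had a log2 fold change above 0 and the median was 0.29. Acta1, the actin of the skeletal thin filament, was at 352, 652 and 397 CPM in controls and 901, 807 and 276 CPM in fibrosis. The group means were 467 ± 162 and 661 ± 337 CPM (SD, n = 3 each), and the log2 fold change was 0.50 ± 0.45 (SE). Tpm1, a tropomyosin that many other cells express too, was at 253, 338 and 290.0 CPM in controls and 418, 416 and 240.0 CPM in fibrosis. It followed the same order with only 1.74-fold between the extremes, and the log2 fold change was 0.28 ± 0.23 (SE).

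Ttn (titin, the molecular spring), Neb (nebulin, along the thin filament), Myot, Tcap and Ldb3 (Z-disc proteins), Actn2 (the Z-disc actinin of all fibres), Xirp2 (an actin-binding repeat protein) and Des (the desmin intermediate filament) had a highest library between 2.65 and 3.97 times the lowest. Fibrosis mouse 1 was highest in all 8. Xirp2 was outside the common order because control mouse 1, at 22.2 CPM, was above control mouse 2, at 21.2 CPM. Smyd1, a muscle methyltransferase needed for sarcomere assembly, was at 6.03, 13.5 and 8.26 CPM in controls and 6.33, 13.6 and 5.99 CPM in fibrosis. It was the only listed gene in which fibrosis mouse 1 was among the lower libraries, and its log2 fold change was -0.10 ± 0.43 (SE). The implied length of Smyd1 differed 1.69-fold between libraries and that of Ttn 1.61-fold, so their FPKM is less certain than their counts.

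The 5 genes of calcium handling summed to 767, 1204 and 790 CPM in controls and 1547, 1216 and 458 CPM in fibrosis, with a median log2 fold change of 0.22. Pvalb, the calcium buffer of fast fibres, was at 185, 254 and 153 CPM in controls and 340.3, 257 and 90.5 CPM in fibrosis. Atp2a1, the calcium pump that refills the reticulum of fast fibres, was at 478, 782 and 527 CPM in controls and 994, 801 and 299.9 CPM in fibrosis. Both genes had control mouse 2 level with fibrosis mouse 2, and their log2 fold changes were 0.22 ± 0.45 and 0.23 ± 0.42 (SE). Cacna1s, the voltage sensor in the fibre membrane, was at 12.3, 19.2 and 9.60 CPM in controls and 16.2, 15.8 and 6.16 CPM in fibrosis. Here the highest library was a control, and the log2 fold change was -0.11 ± 0.42 (SE). Ryr1, the release channel, and Casq1, the calcium store protein of the reticulum, had log2 fold changes of 0.35 and 0.22.

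The 4 genes of energy supply summed to 464, 758 and 508 CPM in controls and 1039, 832 and 337 CPM in fibrosis. Ckm, the muscle creatine kinase, was at 160.4, 271 and 189.7 CPM in controls and 405, 321 and 104 CPM in fibrosis, and its log2 fold change was 0.42 ± 0.46 (SE). Eno3, the muscle enolase, was at 155, 256 and 163 CPM in controls and 349.6, 274 and 103 CPM in fibrosis, and its log2 fold change was 0.34 ± 0.43 (SE). Both had the order of the summed level except that control mouse 3 was above control mouse 1. Mb (myoglobin) had a log2 fold change of 0.60, and Pygm (muscle glycogen phosphorylase) had 0.07 with the smallest spread of the 40 genes, 1.69-fold.

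A further 96 genes of muscle function that are not among the 42 were looked at in the same fit, and 85 were listed and 73 tested. Their log2 fold changes were above 0 in 57 and below in 16, with a median of 0.19. Other sarcomere genes had a median of 0.28 (21 of 25 above 0), and other genes of excitation and contraction coupling and of the fibre membrane 0.15 (15 of 20). For other muscle energy genes the median was 0.25 (10 of 15). For genes of the neuromuscular junction it was 0.29 (6 of 6). Myogenic factors and satellite cell genes were at 0.04 (5 of 7), and Pax7, which marks the satellite cells, is not listed. Fibrosis mouse 1 was highest in 20 of the 31 listed other sarcomere genes and in 12 of the 20 coupling genes. Fibrosis mouse 3 was lowest in 19 and 15 of them.

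With edgeR and Benjamini-Hochberg adjustment, 0 of these 73 genes were called, against 0% of all tested genes. An unadjusted p under 0.05 was reached by 3, which is 4.11% against 7.01% of all tested genes. The 3 were Tpm3, Pdlim3 and Dok7. Dok7, an adaptor that activates the receptor kinase of the neuromuscular junction, was at 7.15, 7.05 and 6.63 CPM in controls and 11.8, 12.1 and 12.6 CPM in fibrosis. All fibrosis libraries, including mouse 3, were above all controls, which no gene among the 42 showed. Its log2 fold change was 0.81 ± 0.17 (SE), with an adjusted p of 0.298 in edgeR and 0.0280 in DESeq2 (Benjamini-Hochberg in both). DESeq2 called it alone among the 73, against 1.14% of all tested genes, so 1 call is near that share. Groups that did not overlap were seen in 3 of the 73 genes, or 4.11%, against 13.1% of all tested genes, and the others were Chrnb1 and Tpm3. Chrnb1, a subunit of the acetylcholine receptor of muscle, was at 3.80, 7.49 and 7.43 CPM in controls and 10.9, 9.86 and 8.23 CPM in fibrosis, with a log2 fold change of 0.62 ± 0.31 (SE). Tpm3, a tropomyosin of slow fibres and of many other cells, was at 136, 158 and 190.3 CPM in controls and 195, 223 and 211 CPM in fibrosis, with a log2 fold change of 0.38 ± 0.15 (SE). Of the other junction genes, Ache, which breaks down acetylcholine, had a log2 fold change of 0.54 ± 0.52 (SE), and the receptor organiser Rapsn had 0.04 ± 0.25 (SE), with Musk at 0.03 and Lrp4 at 0.05. Chrnb1 and Ache are named after their values were seen.

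Some of these genes share sequence or position with others, which limits how exactly reads could be assigned. Of all stretches of 50 bases in the longest transcript, 32.1% in Myh1, 28.9% in Myh2, 18.9% in Myh4 and 21.4% in Myh8 also occur in another gene, mostly another heavy chain of the cluster. For Myh3 this was 4.81%, and for Myh7 it was 28.2%, mainly shared with Myh6. Tnnc2 shares 55.0% with Ube2c, which overlaps it on the other strand, but Ube2c was at only 1.56 to 3.65 CPM. The strand of the libraries is not given in the sources used here, and 7 of the 40 genes overlap a listed gene on the other strand (Tnnc2, Tnnt3, Tnnc1, Acta1, Smyd1, Atp2a1 and Mb).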

How the data were processed

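RNA-seq of RPE-choroid from 3 control and 3 subretinal fibrosis mice was analysed, with group and mouse number taken from the sample labels. Reads were filtered with FASTP by the authors, who deposited whole-number counts per gene from StringTie, without normalization, and FPKM values scaled by transcript length and mapped reads. The aligner, build and strandedness are not given in the sources used here. GENCODE M21 on GRCm38 was used because it holds 15659 of the 15663 identifiers. Every listed gene has at least 1 count in each library.

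The fit in edgeR 4.0.16 (R 4.3.3, glmQLFit and glmQLFTest with installed defaults, TMM) took the 13454 genes that exceeded 50 counts in 2 or more libraries, with a term for group and no covariate. Benjamini-Hochberg adjustment covered all of them, and calls needed an adjusted p under 0.05 with an absolute log2 fold change of 0.5 or more. These limits are the study's, which used DESeq2. Sums, shares and deviations from the median muscle gene are descriptions without a test, and an exact permutation test with 3 mice a group cannot go under 0.1. Errors are SDs over mice or standard errors. The edgeR test gives no standard error, so it was back-calculated for each gene. It is the absolute log2 coefficient before shrinkage divided by the square root of the quasi-likelihood F statistic. The log2 fold change printed beside it is the one edgeR reports. The scripts were tested on simulated data first.

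The genes, their roles and all lists were chosen with earlier results of these data known. Full values are given for the 2 members with the highest FPKM per role, every heavy chain and any member with an unadjusted p under 0.05. They are also given for members whose highest library is not the usual one. From the other muscle lists, values in each library are given for Dok7, Chrnb1 and Tpm3 only. The marker lists described are given as sums, without values for the single genes called or most abundant in them. Alternatives were DESeq2 1.42.0, limma 3.58.1 on log2(FPKM + 0.1) or log2(FPKM + 1), other normalizations, filters and fits, a replicate block and leaving out mice. The level relative to the other muscle genes was added after the data had been seen. From the photoreceptor list, 1 gene is left out and not reported here. Motifs were searched in RefSeq promoters of GRCm38.p6.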

Additional observations from a re-analysis of the deposited data

How the results depend on the processing

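No muscle gene was called under any alternative run, from DESeq2 and limma to other normalizations, filters and left-out mice. The median log2 fold change of the muscle genes stayed above 0 in all of them, between 0.06 and 0.71 with 1 mouse left out (0.34 with all mice), and the log2 ratio of the summed level between 0.02 and 0.71 (0.35). The number of genes called among all tested, 0 in the fit reported, was 153 with DESeq2 and 153 without control mouse 1 and fibrosis mouse 3. It was 2 with limma at either pseudocount, 1 with edgeR's own filter, with no filter, with library totals in place of TMM or with the newer quasi-likelihood form, and between 0 and 5 with 1 mouse left out, the 5 without control mouse 1. The cause of these differences was not tested. Of the log2 fold changes of single named genes, 300 kept their direction under these alternatives and 18 turned, none of them past the threshold. Relative to the other muscle genes, where no test was made, 14 of 20 values kept their sign and 6 took the opposite one, at -0.19 for Pvalb, -0.15 for Atp2a1, -0.14 for Actc1, -0.03 for Eno3, -0.34 for Myh4 and -0.09 for Myh8. With limma, Myh4 was at -0.0511 and Smyd1 at 0.0331 for a pseudocount of 0.1, and they were at -0.0421 and 0.0263 for a pseudocount of 1, and Cacna1s was 0.16 without the libraries rich in photoreceptor RNA. With 1 mouse left out, the range was -0.18 to 0.60 for Pvalb, -0.11 to 0.60 for Atp2a1, -0.23 to 0.69 for Actc1, -0.0206 to 0.71 for Eno3, -0.48 to 0.55 for Myh4, -0.33 to 0.29 for Myh8, -0.59 to 0.27 for Smyd1 and -0.31 to 0.23 for Cacna1s. For the first 5 of these the lowest value came without fibrosis mouse 1.

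Mice of both groups share replicate numbers, and the labels do not say whether same-numbered mice were paired. The deviations of same-numbered mice correlated at -0.47, 0.50 and -0.28 over genes. Those of control mouse 1 and fibrosis mouse 3 correlated at 0.60. Such correlations also carry the tissue make-up of each library, so they cannot decide whether the mice were paired. With a replicate block the median of the muscle genes was 0.21, Myh4 was at -0.11, and 0 genes were called.

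The number of mice, 3 a group, and the wide spread of the muscle genes limit these comparisons (median standard error 0.45 on the log2 scale, against 0.19 over all tested genes). Depth limits Myl2 and Tnnc1, which have few counts, and also tested genes with few counts such as Tnni1, Myh8 and Myh7. A gene that did not pass the test is not shown to be equal in both groups. The p-values set each group difference against the spread between these mice, which the fits estimate with help from all tested genes.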
